A study of Xenopus laevis with 2 samples.

Results

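The fibroblast growth factor (FGF) ligands and receptors were followed here in explants of the animal cap of Xenopus laevis, tissue that normally becomes ectoderm. The embryos had received RNA for xnr2, a secreted signal of the Nodal family that is known to induce mesoderm and endoderm. The set was 10 gene symbols, the ligands FGF3, FGF4, FGF8, FGF9 and FGF20 and the receptors FGFR1, FGFR2, FGFR3, FGFR4 and FGFRL1. Every row of the deposited table that carried one of these symbols was taken, which gave 20 gene models of 24364. The tetraploid genome of X. laevis holds L and S chromosomes, each set from another ancestor, so that most symbols have an L and an S copy. All caps carried exogenous xnr2 from injection at early cleavage, were cut at stage 10 and were harvested at stage 14, the neural plate stage. There were 2 libraries, numbered 1 and 3 by the labels, each from RNA of 10 pooled explants. The labels name no strain and no separate clutches, so technical spread and spread between embryos cannot be told apart in the difference between the libraries. No control caps entered any comparison, and a level is therefore not a response to xnr2.

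FGF ligands are secreted proteins that bind receptor tyrosine kinases together with heparan sulfate and act through RAS and the ERK kinases. In Xenopus embryos FGF signals are known to be needed for trunk and tail mesoderm and for posterior pattern. FGFRL1 binds ligands at the cell surface and lacks the kinase domain of the other receptors.

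Library 3 held 29238297 exon reads and library 1 held 25880104. The member models took 27177 reads (0.0930%) in library 3 and 19205 reads (0.0742%) in library 1. Levels of 1 model are given in CPM, exon reads scaled to a common library total, and levels of different genes are set side by side only in TPM, which divides by exon length first. In such bulk samples fewer cells of a type and less RNA per cell cannot be told apart. Of fixed marker lists, the muscle and paraxial mesoderm list summed to 23199 TPM in library 3 and 21124 TPM in library 1, with 12 of 13 models at 1 CPM or more in both libraries. Of all models 62.8% reached 1 CPM in both libraries. The epidermis list summed to 113 and 443 TPM in libraries 3 and 1, with 8 of 18 models at that level. Neural markers summed to 15.7 and 13.8 TPM, with 4 of 8, and SOX2 of that list was not analysed here. Endoderm markers summed to 204 TPM in library 3 and 225 TPM in library 1, with 6 of 8 models at 1 CPM and HHEX at 0 reads, and of the blood markers GATA1 was at 0. The label animal cap names where the tissue was cut from, and the muscle markers were far above those of epidermis in both libraries.

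Most FGF ligand and receptor models were expressed. Of 20 models, 16 reached 1 CPM in both libraries, where 62.8% of all models did. All 8 models of FGFR1 to FGFR4 and both of FGFRL1 were among them, and 6 of 10 ligand models, near the share of all models. The ligand models together made up 25.3% of the summed TPM of ligands and receptors in library 3 and 26.8% in library 1.

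**Figure D1:**
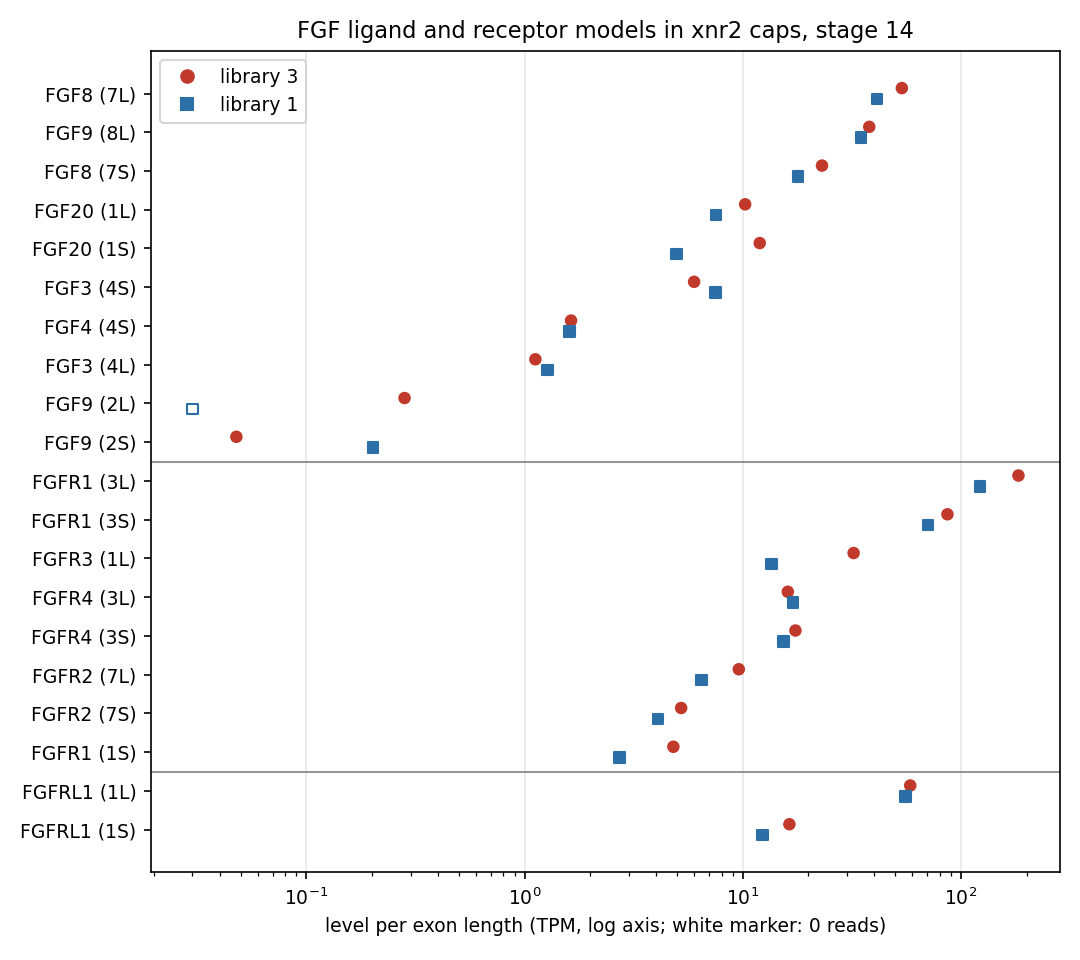
Level per exon length of each FGF ligand model (top), FGFR1 to FGFR4 model (middle) and FGFRL1 model (bottom) in TPM on a log axis, with a red circle for library 3, a blue square for library 1 and a white square for a count of 0. FGFR1 on 3L stood highest at 184 TPM in library 3 and 122 TPM in library 1, and both FGF9 models on chromosomes 2L and 2S stood lowest.

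FGF8, a ligand of the posterior mesoderm and of the boundary between midbrain and hindbrain, was the leading ligand symbol of the set. Its L copy (7L, 25376380 to 25385780 on assembly version 9.1) stood at 39.4 CPM in library 3 and 32.4 CPM in library 1, from 1153 and 838 reads. Its S copy (7S, 20485858 to 20497063) stood at 24.6 CPM in library 3 and 20.4 CPM in library 1. Both copies were somewhat higher in library 3. Per length the symbol summed to 67.9 ± 12.5 TPM (SD, n = 2), which was 52.5% of the ligand TPM of the set in library 3 and 50.5% in library 1.

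FGF9, a ligand grouped with FGF16 and FGF20 by sequence, was carried by 3 models of very unequal level. The model on 8L (22972982 to 22995517) stood at 61.1 CPM in library 3 and 59.7 CPM in library 1, or 36.4 ± 2.26 TPM. The models on 2L and 2S had 6 and 1 reads in library 3 and 0 and 4 reads in library 1. A count of 0 allows up to 3 reads, or 0.116 CPM in library 1, for counting error alone. The FGF9 total of 28.1 ± 2.60% of ligand TPM thus came almost wholly from the 8L model. Whether that model is FGF9 is taken up with its neighbours below.

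FGF20, which belongs to the same group of ligands, was lower. Its L copy (1L, 34761878 to 34766569) had 9.47 CPM in library 3 and 7.42 CPM in library 1. Its S copy (1S, 31194530 to 31200040) had 7.22 CPM in library 3 and 3.21 CPM in library 1. The S copy differed more between the libraries than any other ligand model with 10 reads. FGF20 took 15.2% of ligand TPM in library 3 and 10.7% in library 1.

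FGF3 and FGF4, neighbours on chromosome 4, were the lowest ligands by the deposited symbols. FGF3 is known from the inner ear and hindbrain of vertebrates, and FGF4, called eFGF in Xenopus, takes part in a loop with Brachyury in the early mesoderm of that genus. The S copy of FGF3 (4S, 14424299 to 14435910) had 5.92 CPM in library 3 and 7.92 CPM in library 1, from 173 and 205 reads. Its L copy (4L, 8698858 to 8711299) had 13 and 14 reads in libraries 3 and 1, under 1 CPM in each. The FGF4 model on 4S (14381547 to 14391371) lay beside FGF3 and had 14 reads (0.479 CPM) in library 3 and 13 reads (0.502 CPM) in library 1. Its exon length of 584 bp raises this to 1.62 ± 0.0208 TPM, still the lowest symbol of the set as deposited. An L copy of FGF4 was not analysed here.

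**Figure D2:**
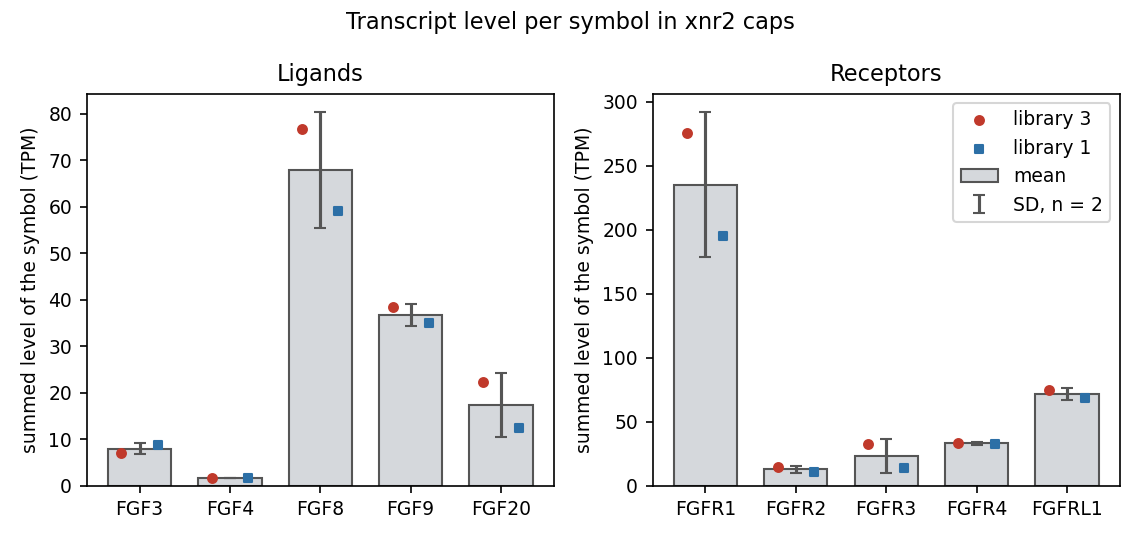
Summed TPM of all models of a symbol, for ligands (left) and receptors (right) on separate scales from 0, with the mean as a bar, the SD over 2 libraries as an error bar, and library 3 (red) and library 1 (blue) as points. FGF8 led the ligands at 67.9 TPM and FGFR1 the receptors at 235 TPM.

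FGFR1, the receptor best known for mesoderm in vertebrate embryos, held most receptor transcripts. Its model on 3L (124252898 to 124294614) had 347 CPM in library 3 and 247 CPM in library 1, from 10147 and 6380 reads. Its model on 3S (21527385 to 21578419) had 192 CPM in library 3 and 167 CPM in library 1. Both were above every other member in both libraries. Per length, the 3L model outranked 96.1% of all models in library 3 and 94.3% in library 1. The symbol took 77.3% of the TPM of FGFR1 to FGFR4 in library 3 and 77.6% in library 1. Its level summed to 275 and 195 TPM in libraries 3 and 1. FGFR1 is itself most of the total that the share divides by, so that its share moves less than its level by construction.

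The third model called FGFR1, on 1S (12061376 to 12100700), was much lower, with 8.04 CPM in library 3 and 4.87 CPM in library 1. Over its last 5584 bp it overlaps a LETM1 model of the opposite strand, which had 29.9 and 21.8 CPM in libraries 3 and 1. The kit does not mark strand, so that reads of the overlap cannot be told apart.

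FGFR4 came next among the kinase receptors by the deposited symbols, with nearly equal copies. Its L copy (3L, 39291464 to 39304611) had 28.4 CPM in library 3 and 32.1 CPM in library 1, and its S copy (3S, 98908163 to 98921868) had 31.0 CPM in library 3 and 29.2 CPM in library 1. These levels overlapped between the copies. The symbol summed to 33.0 ± 0.823 TPM, 9.43% of the kinase receptor TPM in library 3 and 12.9% in library 1.

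FGFR3, known in vertebrates for cartilage and the nervous system, had 1 model, on 1L (12876928 to 12950160). It stood at 55.4 CPM in library 3 and 24.9 CPM in library 1, from 1621 and 644 reads. This was the widest gap in TPM relative to the mean of any symbol of the set, with 22.9 ± 13.2 TPM. Its share of kinase receptor TPM was 9.06% in library 3 and 5.38% in library 1.

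FGFR2, a receptor of epithelia and of many later organs, was the lowest kinase receptor symbol, at 12.7 ± 3.01 TPM. The L copy (7L, 13873778 to 13945989) had 19.8 CPM in library 3 and 14.3 CPM in library 1. The S copy (7S, 10490478 to 10573317) had 8.17 CPM in library 3 and 6.84 CPM in library 1. The L copy was above the S copy in both libraries, also per length.

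FGFRL1 stood second among all 10 symbols, at 71.5 ± 4.83 TPM. The L copy (1L, 10585385 to 10719277) had 54.6 CPM in library 3 and 55.6 CPM in library 1. The S copy (1S, 10023984 to 10166688) had 36.1 CPM in library 3 and 29.0 CPM in library 1. The summed TPM of FGFRL1 was above that of each of FGFR2, FGFR3 and FGFR4 in either library.

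Ordered by summed TPM, the deposited symbols ran FGFR1, FGFRL1, FGF8, FGF9, FGFR4, FGFR3, FGF20, FGFR2, FGF3 and FGF4. FGF9 held its place through its 8L model, at 36.4 of 36.7 TPM, and that model lay between other flanks than the RefSeq gene fgf9.S, as given below. The library ranges of FGFRL1 and FGF8 overlapped, as did those of FGFR3 and FGF20 and those of FGF20 and FGFR2. The other neighbours in this order did not overlap. FGFR4 and FGFR3 were barely apart, with FGFR4 at 32.4 TPM in library 1 and FGFR3 at 32.2 TPM in library 3. Among the 20 models taken singly, 8 of 19 neighbours overlapped. No test of this order was run.

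The symbols of the table are those of human genes, and the neighbours of each model were set beside the RefSeq genes of X. laevis assembly 10.1. For 16 of 20 models the FGF family gene of RefSeq that shared the most neighbours on the same chromosome had the same name. The model called FGFR1 on 1S was an exception. It lay between TACC3 and LETM1, as does the FGFR3 model on 1L, and shared 10 of 12 neighbours with the RefSeq gene fgfr3.S, which stands between the same flanks. The FGF9 model on 8L lay between SNX12 and ATRX and 3 models from COX7B. RefSeq places fgf16.S on 8S, 3 genes from cox7b.S, and fgf9.S on 2S beside MICU2, where the low FGF9 models on 2S and 2L lie. The FGF9 models on 8L and 2L and the FGFR1 model on 3S shared no neighbour with a named FGF family gene of the same chromosome in the RefSeq table. The deposited symbols are kept here for all models. With the 1S model counted under FGFR3, FGFR1 would hold 76.2% of kinase receptor TPM in place of 77.5%, both as means of the libraries. FGFR3, at 32.2 TPM in library 3 with 4.81 TPM for the 1S model, would then pass FGFR4 at 33.5 TPM there. In library 1 FGFR3 would stay below, with 13.5 and 2.73 TPM against 32.4 TPM for FGFR4. Without the 8L model, FGF8 would hold 71.0% of ligand TPM in library 3 and 71.9% in library 1. FGF9 would then be the lowest symbol in place of FGF4, with means of 0.141 TPM on 2L and 0.125 TPM on 2S.

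L and S copies were set against each other per exon length. Of 8 symbols with 1 L and 1 S model on the same chromosome pair, 7 had 10 reads or more in the pair in each library. FGF9 on 2L and 2S fell short. The L copy was 2-fold or more higher in both libraries for 2 of 7 pairs, where this held for 30.7% of all 5595 pairs. The S copy was 2-fold or more higher for 1 of 7, against 20.8% of all pairs. The counts for the FGF genes are near these shares.

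FGF8 showed the steadiest imbalance. Its L copy had 53.6 TPM and its S copy 23.1 TPM in library 3, a ratio of 2.32 with a 95% counting interval of 2.11 to 2.55. In library 1 the L copy had 41.2 TPM and the S copy 17.9 TPM, a ratio of 2.31 (2.07 to 2.58). In reads alone the ratios were 1.60 and 1.59 in libraries 3 and 1, since the S model is longer (2124 bp) than the L model (1464 bp).

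FGFRL1 depended more on length. Per length, its L copy was 3.58 times the S copy in library 3 and 4.54 times in library 1. In reads the ratios were 1.51 and 1.91, as the L model has 1855 bp of exon and the S model 4395 bp. The L copy was higher on both scales.

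FGF3 leaned to S. The S copy had 5.98 TPM and the L copy 1.12 TPM in library 3, and 7.50 and 1.28 TPM in library 1. The L copy was 0.187 times the S copy in library 3, with an interval of 0.0977 to 0.329 that reflects its 13 reads, and 0.170 times in library 1. In reads the S copy was 13.3 times the L copy in library 3 and 14.6 times in library 1, as the S model has 1969 bp of exon and the L model 790 bp.

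FGFR1 on 3L was 2.12 times its S copy per length in library 3 and 1.73 times in library 1, so that it passed 2-fold in library 3 alone. FGFR2 had ratios of 1.84 and 1.58 in libraries 3 and 1, and in reads without length 2.43 and 2.09, past 2-fold in both. FGF20 had 0.857 in library 3 and 1.51 in library 1, and in reads 1.31 and 2.31, so that its L copy was then higher in both. FGFR4 had 0.922 in library 3 and 1.11 in library 1. Per length, the ratio of FGF20 and FGFR4 lay under 1 in library 3, where the counting interval held equal levels, and above 1 in library 1. The FGFR3 model on 1L set beside the 1S model at the same flanks, a pair chosen after its neighbours were seen, gave 6.70 in library 3 and 4.97 in library 1.

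**Figure D3:**
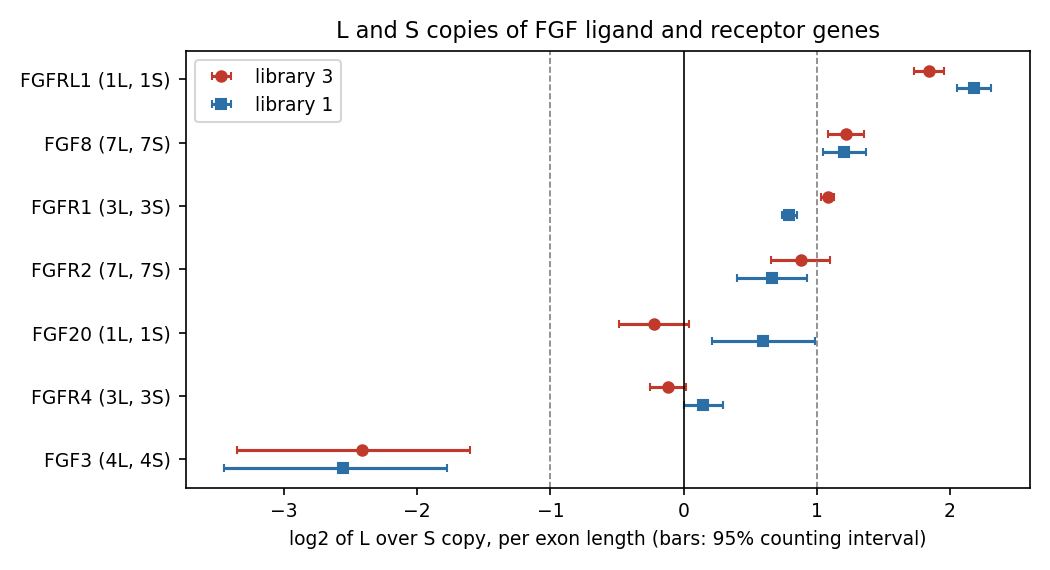
Log2 ratio of the L over the S copy per exon length for 7 pairs, in library 3 (red circle) and library 1 (blue square), with 95% counting intervals as bars, a solid line at equal levels and dashed lines at 2-fold. FGFRL1 and FGF8 lie beyond 2-fold on the L side in both libraries and FGF3 on the S side.

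The libraries were then compared with each other, as library 3 over library 1, to see how far FGF transcripts differed between them. With 1 library a side there is no test, and a ratio was called past 1.5-fold. Of 18 members with 10 reads or more in both libraries together, 3 were 1.5-fold or more higher in library 3, where 13.0% of all 18820 such models were, and 0 were lower, against 11.0%. The share of higher members is near that of all models. The median log2 ratio of the members was 0.26, and that of all models was 0.05. In 13 of 18 the level was higher in library 3, against 54.4% of all models.

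FGFR3 was 2.23-fold higher in library 3, with a 95% counting interval of 2.03 to 2.44. The FGFR1 model on 1S, which has the flanks of fgfr3.S, was 1.65-fold higher (1.32 to 2.07). The S copy of FGF20 was 2.25-fold higher (1.74 to 2.94). These 3 were past 1.5-fold. Of the 18 members, 2 were 2-fold or more higher, against 4.60% of all models, and 0 were 2-fold or more lower, against 4.61%. The members just inside were FGFR1 on 3L at 1.41-fold (1.36 to 1.45) and FGFR2 on 7L at 1.39-fold (1.22 to 1.59).

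FGF3 on 4S went the other way at 0.747-fold (0.607 to 0.919). FGFR4 on 3L stood at 0.885-fold (0.803 to 0.976), while FGFRL1 on 1L (0.982-fold) and FGF9 on 8L (1.02-fold) had intervals that held equal levels. The interval, which covers counting error only, excluded equal levels for 12 of the 18 members and for 56.4% of all models with 10 reads.

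Exon length moved with this ratio. Among models at a mean of 10 CPM or more, the median log2 ratio was -0.14 in the shortest of 5 length classes and 0.25 in the longest. The FGFR1 to FGFR4 models are long, at 3119 to 4405 bp, and the ligand models run from 584 to 3198 bp. Relative to its length class, FGFR3 had a log2 ratio of 1.02 and FGF20 on 1S had 1.28. The FGFR1 model on 1S had 0.58 and was then just inside 1.5-fold, and the median of the members became 0.10. Marker lists moved too. The notochord and axial list, with 6 of 6 models at 1 CPM, summed to 471 TPM in library 3 and 238 TPM in library 1. NOTO of that list was not analysed here. The epidermis list, with no symbol at 0 reads, was lower in library 3 as given above. Its highest model in library 1, KRT19 on 9_10S, had 40.4 TPM in library 3 and 204 TPM in library 1. In CPM, TP63 on 5L alone went the other way, with 1.98 in library 3 and 1.24 in library 1. TFAP2A on 6S was nearly equal, at 0.650 and 0.657 CPM. The part of these lists in the FGFR3 and FGF20 differences was not tested.

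**Figure D4:**
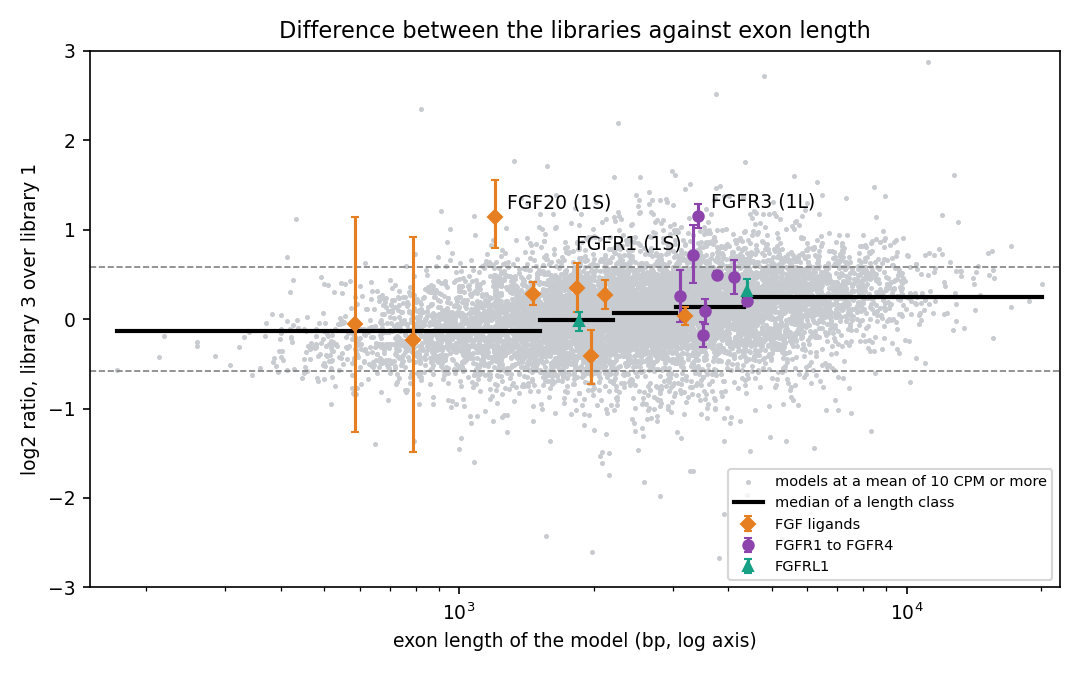
Log2 ratio of library 3 over library 1 against exon length (log axis), with all models at a mean of 10 CPM or more in grey, black lines at the median of 5 length classes, and members with 10 reads in colour with 95% counting intervals; dashed lines mark 1.5-fold. FGFR3 (1L), FGFR1 (1S) and FGF20 (1S) lie above the upper line, and 16 grey models lie outside the vertical axis.

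Other genes of the pathway were read from a list by role. Of 61 listed symbols 52 matched, and FGF16, FGF17, FGF18, FGF21, FGF22, MAP2K2, MAPK3, ETV4 and ETV5 were not analysed here. The FGF9 model on 8L, which lies near COX7B as fgf16.S does, was kept under FGF9. Of 99 models of the matched symbols, 76 reached 1 CPM in both libraries, where 62.8% of all models did. Of 83 models with 10 reads, 15 were 1.5-fold or more higher in library 3 and 6 were lower. Of all models 13.0% were higher and 11.0% lower. The groups differed in these counts, which are given for 5 of the 6 below. The median log2 ratio of the listed models was 0.15, and 0.10 relative to exon length class.

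Ligands outside the set were mostly at or near 0. The level of 1 CPM in both libraries was met by 4 of 19 models, against 62.8% of all models. The exception in level was FGF2, a ligand stored in eggs, whose model on 1L had 144 CPM in library 3 and 120 CPM in library 1. Its 175 ± 30.7 TPM exceeded every ligand of the set. FGF2, with 1461 bp of exon, overlaps NUDT6 of the opposite strand by 812 bp, and NUDT6 had 116 and 92.3 CPM in libraries 3 and 1. As the kit does not mark strand, reads of this overlap cannot be told apart, and the rank of FGF2 carries that limit. An FGF10 model on 1L (198703126 to 198769115), of a ligand known from lung and limb buds, had 2.67 CPM in library 3 and 10.2 CPM in library 1. Another FGF10 model on 1L (103201448 to 103228240) went the other way, with 0.889 CPM in library 3 and 0.348 CPM in library 1. The FGF10 model on 1S had 0.171 CPM in library 3 and 0.618 CPM in library 1. FGF11 on 3L had 1.54 and 2.63 CPM in libraries 3 and 1. FGF14 on 2S, named after its values were seen, was the other model at 1 CPM in both, with 5.10 CPM in library 3 and 2.05 CPM in library 1. FGF5 on 1S had 2.15 CPM in library 3 and 0.773 CPM in library 1. Of 10 of these ligand models with 10 reads, 3 were 1.5-fold or more higher in library 3 and 4 lower. Among all models these shares were 13.0% and 11.0%. Some of these ligand calls rest on few reads in libraries 3 and 1, with 26 and 9 for the second FGF10 model on 1L. FGF10 on 1S had 5 and 16 reads and FGF5 had 63 and 20. No counting intervals are given for them, so that counting error is not set apart in this count.

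Receptor partners reached 1 CPM in both libraries in 15 of 21 models, near the 62.8% of all models. FLRT3, a membrane protein that binds FGF receptors in Xenopus, had the highest model on 5L, at 141 TPM in library 3 and 134 TPM in library 1. The heparan sulfate carriers SDC4 (9_10L) and GPC4 (8L) had 87.0 and 80.8 TPM and 92.3 and 64.9 TPM in libraries 3 and 1, and FLRT3 on 5S had 81.7 and 79.1 TPM, so that these 3 overlapped. IL17RD, the inhibitor Sef, had 69.0 CPM in library 3 and 33.9 CPM in library 1 (Scaffold24), a ratio of 2.04. In this group 5 of 16 models with 10 reads were 1.5-fold or more higher in library 3 and 2 lower. Of all models 13.0% were higher and 11.0% lower.

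Most matched genes that act inside the cell were expressed. Docking and adaptor models reached 1 CPM in 19 of 20 cases, where 62.8% of all models did. The adaptor GRB2 led at 46.9 TPM in library 3 and 52.0 TPM in library 1 (9_10L). SHC1 (8L) followed at 35.2 and 22.8 TPM, GAB1 (Scaffold111) at 16.3 and 12.9 TPM and the phosphatase PTPN11 (1S) at 13.6 and 15.0 TPM in libraries 3 and 1. All 14 models of the 8 matched symbols from RAS to ERK, of 10 listed, reached 1 CPM, against the same 62.8%. Between the libraries 0 of these 14 passed 1.5-fold, where 13.0% of all models were higher in library 3 and 11.0% lower. Those shares take in models with as few as 10 reads in both libraries together. Each of the 14 had 75 reads or more in each library, so that the depth is unlike. The ERK-activating kinase MAP2K1 had 42.0 TPM in library 3 and 30.5 TPM in library 1 (3L).

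Feedback inhibitors reached 1 CPM in 15 of 16 models, with 0 of 15 past 1.5-fold, against 13.0% higher and 11.0% lower among all models. Here too the depth is unlike, as each of the 15 had 57 reads or more in each library. DUSP5 stood at 63.7 TPM in library 3 and 52.0 TPM in library 1 (7L) and the ERK phosphatase DUSP6 at 33.2 and 32.2 TPM (3L). The Sprouty genes SPRY1 (1L) and SPRY2 (2L) stood at 61.5 and 49.5 TPM and at 45.5 and 40.5 TPM in libraries 3 and 1.

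Response factors were the highest group, with a median of 58.4 TPM. In this group 9 of 9 models reached 1 CPM in both libraries, where 62.8% of all models did. CDX4, a caudal-type factor of the posterior body, had 554 TPM in library 3 and 668 TPM in library 1 (8L) and 266 and 255 TPM (8S). ETV1 had 120 and 68.9 TPM in libraries 3 and 1 (6S), and Brachyury, given as T, had 91.5 and 46.3 TPM (5L). Of the 9 models, 5 were 1.5-fold or more higher in library 3 and 0 lower, where 13.0% and 11.0% of all models were. Their median log2 ratio was 0.67, and that of all models was 0.05. Relative to exon length class their median was 0.46. ETV1 on 6S went from a log2 ratio of 0.71 to 0.46 and was then inside 1.5-fold. T is also in the notochord list that was higher in library 3.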

How the data were processed

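RNA of 2 libraries was analysed. Per the labels' protocols, polyA-selected RNA was made into Illumina TruSeq libraries and sequenced from 1 end. FastQC, the aligner STAR (2.4.0k), HOMER and edgeR are the tools named, per the submitters' processing notes. Per the file headers, HOMER counted exon reads per Mayball gene model on assembly version 9.1 and applied its simple normalization, so that the deposited signal is a read count times 1 constant per library. How multiply aligned reads were treated is not given in the sources, and near-identical L and S copies may share or lose reads. Dividing by the value of 1 read (0.715 in library 3, 0.808 in library 1) gave whole reads, within 0.05, for 100% of nonzero values in both. The deposited lengths and positions were used as they stand. The header names 4 libraries, of which 2 with a wt name were not analysed here. Columns of values from other samples numbered 0.

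CPM used the total of recovered reads, including 519 models with no symbol (1.34% of reads in library 3, 1.29% in library 1), and TPM divided by exon length. Ratios are log2((CPM + 0.1)/(CPM + 0.1)) for models with 10 reads in both libraries together, and folds with intervals are ratios of CPM. Intervals are Clopper-Pearson at 95% and cover counting error only. With 1 group no count test could be fitted; edgeR 4.0.16 (TMM) and DESeq2 1.42.0 served for scaling alternatives alone. The scripts were tested on simulated data. Neighbours were up to 6 models on each side in the table and 12 protein-coding genes in RefSeq. All models of the 10 symbols are reported; of each role group of the pathway list the 4 highest by TPM are named, plus any past 2-fold between the libraries at 10 CPM. Some models that this rule names are not reported here. Members, lists and rules were chosen with earlier results of these data known.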

Additional observations from a re-analysis of the deposited data

How the results depend on the processing

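Of 39 values under other settings, 28 stayed within the spread or within 1.5 times of the count. Counts and shares have no direction to change. Only the median log2 ratio has a sign, and it stayed positive under each setting. With 2 libraries, the share in either of them lies within the SD of their mean by construction, so leaving a library out could not move a share. These shares count among the 28, as does the count of L and S pairs in reads without length, where the called pairs changed. With the models of a symbol summed, 9 of 10 symbols reached 1 CPM, against 16 of 20 models. In reads without length, the ligand share of ligands and receptors was 16.9% in place of 26.0%, the FGFR1 share of kinase receptors 79.4% in place of 77.5% and the FGF8 share of ligands 41.5% in place of 51.5%. With the highest model of each symbol alone, FGFR1 held 76.4% and FGF8 46.7%. Added after the data were seen were the FGFR1 model on 1S counted under FGFR3, with 76.2% for FGFR1, and the FGF9 model on 8L left out, with 71.5% for FGF8. Without a read minimum 5 members in place of 3 passed 1.5-fold between the libraries, the added ones being FGF9 on 2L and 2S with 6 and 5 reads in all. At 2-fold, and relative to exon length class, 2 did. At 2-fold 4.60% of all models were higher in library 3 and 4.61% lower. The shares of all models without a read minimum and relative to length class are not given here. The median log2 ratio was 0.10 relative to length class in place of 0.26. With 1.5-fold in place of 2-fold, 5 in place of 3 L and S pairs were called. In reads without length 2 were, FGF3 and FGFR2 in place of FGF3, FGF8 and FGFRL1. The shares of all pairs under these settings, or with a library left out, are not given here. These counts therefore cannot be set against all pairs. With either library left out, the shares ran from 25.3 to 26.8% for ligands, 77.3 to 77.6% for FGFR1 and 50.5 to 52.5% for FGF8, and 3 to 4 pairs were called. The ratio between libraries has no value with 1 library left. No paired analysis was possible because there is 1 group. Depth limits FGF4, FGF3 on 4L and FGF9 on chromosomes 2L and 2S, which had 14 reads or fewer in each library.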

Other observations

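Other genes with FGF in their name fell into those with and without reads. The FGF-binding proteins, which release FGFs from the matrix, were at 0 in both libraries for FGFBP1 (1S and 1L) and FGFBP2 (1L and 1S) and for FGFBP3 on 7L, while FGFBP3 on 7S had 3 reads in library 3 and 2 in library 1. The centrosomal gene FGFR1OP, named for its fusion with the receptor in human leukaemia, had 22.6 CPM in library 3 and 24.6 CPM in library 1 (5L). These genes were chosen after their values were seen.

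FGFR1 lies beside models called NODAL on 3L and 3S. The NODAL models nearest to it, at 111 kb on 3L and 94.4 kb on 3S, had 1 and 0 reads in library 3 and 1 and 1 reads in library 1, whereas FGFR1 there was the highest member on both chromosomes. The NODAL models above 10 CPM lay farther off. That on 3S lay at 654 kb, with 17.4 CPM in library 3 and 15.9 CPM in library 1. On 3L they lay at 1114 kb, with 27.1 CPM in library 3 and 14.5 CPM in library 1, and at 1120 kb, with 42.7 and 53.5 CPM. The injected xnr2 is itself of the Nodal family, and any reads of it on these models cannot be told apart from endogenous reads.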
